A study of Homo sapiens with 70 samples.

Results

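The zinc finger genes of chromosome 19 were examined in RNA-seq counts of human lung cells. Members were all genes of the count table on chromosome 19 whose symbol is ZNF followed by digits and at most 1 letter, which gave 252 of the 44503 genes in the table, 86 of them on the short arm (19p) and 166 on the long arm (19q). The arms were separated at the widest interval between consecutive gene starts, 3.91 Mb between 24.22 and 28.13 Mb on hg19. Most products of this family carry a KRAB domain, which recruits the co-repressor TRIM28, in front of an array of C2H2 zinc fingers, which bind DNA. TRIM28 in turn brings the histone H3 lysine 9 methyltransferase SETDB1 and HP1 proteins, and many family members silence transposable elements in this way. The genes arose largely by tandem duplication, so neighbours within a cluster are close paralogs.

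IMR90 is a strain of normal human fetal lung fibroblasts, and H1299 is a line of non-small cell lung carcinoma. Every IMR90 group carried the retroviral construct pLNCX2 ER:HRAS G12V, an oncogenic RAS fused to an oestrogen receptor domain, which 4-hydroxytamoxifen (4OHT) activates. Oncogene-induced senescence (OIS) was brought about with 100 nM 4OHT for 6 days, and Grow cells received none. The first experiment held 8 libraries each of Grow and OIS cells with the empty vector pMSCV miR v, and of Grow-shA1 and OIS-shA1 cells with pMSCV miR shHMGA1, a short hairpin against the architectural chromatin protein HMGA1. The second held 5 libraries each of Grow-v-v and OIS-v-v cells, both with pSuper v and pMSCV miR v, of OIS-shCEBPB cells with pSuper shCEBPB and pMSCV miR v, of OIS-shp53 cells with pSuper v and pMSCV miR p53, and of OIS-shCEBPB-shp53 cells, labelled with pSuper CEBPB and pMSCV miR p53. The third held 7 libraries of H1299 cells with pMSCV miR v and 6 of H1299-shA1 cells with pMSCV miR shHMGA1. All constructs were delivered by retrovirus to cells selected as pools, and a single hairpin against each gene was used. The methods call the libraries biological replicates, and the labels do not say that they came from separate cultures, so the p-values measure the spread between these libraries.

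Of the 70 libraries, the shallowest was OIS replicate 4 with 1903607 counts, and the deepest held 24890797. HMGA1 itself was lower in OIS-shA1, Grow-shA1 and H1299-shA1 by 3.62, 3.79 and 2.31 on the log2 scale, and CEBPB was lower by 3.06 and 3.19 with shCEBPB and with both hairpins, so these knock-downs matched their labels. Lung fibroblast markers (11 genes such as COL1A1 and VIM) summed to a median of 47800 CPM in Grow and 10400 in OIS libraries, 10 of the 11 being lower in OIS, and to 1790 in H1299, where epithelial keratins and adhesion genes summed to 883. The endothelial and immune markers summed to 0.734 and 19.7 CPM in Grow and to 1.83 and 53.9 in OIS. In each of these 2 groups, 2 of the 5 immune genes were at 0 in every library. A principal component of the second experiment, with 36.7% of the variance of the deviations from the group means, set replicates 4 and 5 apart from replicates 1 to 3 in all 5 groups. The labels name no batch that accounts for it, and values within each set of replicates are given beside the pooled ones. These are bulk libraries, in which fewer cells of a type and less RNA per cell cannot be told apart.

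Runs of members whose starts lay at most 1 Mb apart gave 9 clusters of 5 or more genes, which held 241 of the 252 members. On 19p these were 19p-A (5 genes, ZNF554 to ZNF77), 19p-B (16, ZNF557 to ZNF846), 19p-C (26, ZNF653 to ZNF791) and 19p-D (38, ZNF101 to ZNF254, at 19.78 to 24.31 Mb beside the centromere). On 19q they were 19q-A (5, ZNF302 to ZNF792), 19q-B (27), 19q-C (23), 19q-D (42) and 19q-E (59, ZNF628 to ZNF446, near the telomere). The letters are names used here only. Among 242 members with an annotated coding sequence, the translated sequence held a median of 12 C2H2 fingers (range 1 to 36), and 183 (75.6%) had the pattern of the KRAB A box. The pattern was phenylalanine, any residue, aspartate and valine near the start of the protein. A KRAB domain with a variant of it is missed, so these shares are not counts of KRAB domains. In 19p-D the median was 13 fingers (range 5 to 36), and 32 of 36 coding sequences (88.9%) had that pattern.

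One finger of each of 4 members is shown as an example, since reads from these repeats can align to several genes. Each is the first of its protein with a fixed spacing of cysteines and histidines and the linker TGEKP after it. The marked positions are therefore alike by choice. ZNF792 has 1 such linker for 12 fingers (0.08 per finger), and the median over members is 0.48 per finger. Capitals mark the codons of the 2 cysteines and 2 histidines that hold the zinc ion and of the 5-residue linker to the next finger, and all are written 5′ to 3′ on the strand of the gene from GRCh37 (chr19:35449658-35449741, minus strand; chr19:21299990-21300073, plus; chr19:20044287-20044370, plus; chr19:23405946-23406029, minus).

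ZNF792 finger 4 of 12: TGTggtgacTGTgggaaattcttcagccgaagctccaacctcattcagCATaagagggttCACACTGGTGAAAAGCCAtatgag

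ZNF714 finger 2 of 12: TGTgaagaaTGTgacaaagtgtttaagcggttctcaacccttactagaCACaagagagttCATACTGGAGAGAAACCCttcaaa

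ZNF93 finger 1 of 16: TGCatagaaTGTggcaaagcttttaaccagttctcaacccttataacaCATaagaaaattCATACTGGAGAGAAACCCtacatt

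ZNF724 finger 5 of 14: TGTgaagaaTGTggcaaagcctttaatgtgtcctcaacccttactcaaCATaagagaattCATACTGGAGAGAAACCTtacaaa

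The last 3 come from 19p-D, and the first comes from 19q-A. In the tables of the first experiment and of H1299, whose headers give the counting command, fragments or reads that aligned to more than 1 place or overlapped more than 1 gene were not counted by the authors, so a member loses what it shares with a copy. The table of the second experiment gives no command. Exons of 127 members overlapped those of another counted gene, on the antisense strand for 70, and counting ignored strand in those 2 tables.

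Promoters are shown for the 2 members that rose most between Grow and OIS cells and the 3 that fell most under the rule for named members, where the RefSeq table for GRCh38.p14 held one. It matched 213 of the 252 members, 28 of the 38 in 19p-D among them, and ZNF30 had no entry. Each sequence runs from 250 bases before to 50 after the gene start. Capitals mark every match, on either strand, to the NF-Y motif CCAAT, the SP1 motif GGGCGG, the YY1 motif AANATGGC or the TATA motif TATAAA. They lie at chr19:34964180-34964479 (minus strand), chr19:52048789-52049088 (minus), chr19:21081953-21082252 (plus), chr19:19900696-19900995 (plus) and chr19:23250345-23250644 (minus).

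ZNF792: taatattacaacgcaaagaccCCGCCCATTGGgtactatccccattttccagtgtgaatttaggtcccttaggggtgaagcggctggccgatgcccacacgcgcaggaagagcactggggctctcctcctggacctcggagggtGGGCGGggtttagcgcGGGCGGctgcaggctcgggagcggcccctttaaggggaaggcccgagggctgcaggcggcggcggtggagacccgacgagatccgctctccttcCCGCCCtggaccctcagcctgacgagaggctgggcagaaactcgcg

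ZNF432: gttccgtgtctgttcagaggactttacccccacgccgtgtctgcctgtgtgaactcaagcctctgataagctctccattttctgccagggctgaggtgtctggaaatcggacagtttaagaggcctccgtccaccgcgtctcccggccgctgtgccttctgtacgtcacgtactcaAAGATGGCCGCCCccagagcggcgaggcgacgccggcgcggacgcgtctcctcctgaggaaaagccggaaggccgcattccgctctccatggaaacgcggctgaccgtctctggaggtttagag

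ZNF714: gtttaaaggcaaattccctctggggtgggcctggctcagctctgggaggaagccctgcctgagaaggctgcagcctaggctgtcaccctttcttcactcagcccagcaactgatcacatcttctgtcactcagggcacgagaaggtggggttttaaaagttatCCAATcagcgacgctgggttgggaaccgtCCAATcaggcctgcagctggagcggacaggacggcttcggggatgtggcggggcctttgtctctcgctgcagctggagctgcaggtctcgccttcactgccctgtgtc

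ZNF93: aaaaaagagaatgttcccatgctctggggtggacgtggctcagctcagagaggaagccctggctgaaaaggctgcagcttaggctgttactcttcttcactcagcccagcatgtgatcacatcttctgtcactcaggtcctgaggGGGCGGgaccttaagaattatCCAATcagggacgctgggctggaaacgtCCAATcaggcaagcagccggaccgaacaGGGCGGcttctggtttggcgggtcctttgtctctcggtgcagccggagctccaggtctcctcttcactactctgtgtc

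ZNF724: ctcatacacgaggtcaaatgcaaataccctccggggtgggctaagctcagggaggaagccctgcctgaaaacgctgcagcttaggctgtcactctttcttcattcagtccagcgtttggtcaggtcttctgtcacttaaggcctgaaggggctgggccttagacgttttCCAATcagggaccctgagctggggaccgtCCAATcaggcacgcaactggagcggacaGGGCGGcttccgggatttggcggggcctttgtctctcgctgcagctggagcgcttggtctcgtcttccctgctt

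The 3 promoters of 19p-D genes each hold 2 CCAAT boxes on the gene strand, 28 or 29 bases apart, and the promoters of the 2 genes that rose do not. Within 19p-D, all 28 promoters (100%) held CCAAT on at least 1 strand, against 46.5% of the 185 promoters of other members and 34.6% of all 35097 promoters in the table. A pair of CCAAT boxes on the gene strand with starts 20 to 40 bases apart, a criterion chosen after these sequences were seen, was present in 18 of the 28 (64.3%), in 6 of the 185 (3.24%) and in 1.35% of the whole table. Of those 6, 4 belonged to 19p-A. The median ratio of observed to expected CpG was 0.44 in 19p-D, 0.80 in the other members and 0.58 in the whole table, and GGGCGG was found in 75.0%, 66.5% and 44.9%. AANATGGC was found in 7.14%, 15.7% and 6.58%, and TATAAA in 10.7%, 0.541% and 11.5%. The cluster is a family of paralogs with shared upstream sequence, so its 28 promoters are not independent, and a match of letters is not a binding site.

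Levels of the members in both cell lines are given here without those of other genes for comparison. A mean of at least 1 CPM (counts scaled to library size with TMM factors) was reached by 216 of the 252 members in Grow, 210 in OIS, 210 in Grow-v-v, 205 in OIS-v-v and 226 in H1299 libraries. Per kb of exon, the median member stood at 1.22 RPKM in Grow and 2.35 in H1299, 2 tables that were normalised separately. The 5 members with the highest RPKM in Grow were ZNF146 (mean 32.8, range 30.8 to 35.8), ZNF580 (7.84), ZNF358 (7.02), ZNF561 (6.71) and ZNF317 (6.14). On this scale ZNF146 stood above all the others in each Grow library, while the Grow ranges of ZNF580 (7.02 to 9.56) and ZNF358 (6.65 to 7.49), which are next in order, overlapped. Exons of ZNF146, ZNF580 and ZNF358 overlap those of other genes over 10.7%, 19.2% and 34.3% of their length. In OIS libraries the means of the 5 were 45.0, 5.13, 4.37, 10.0 and 8.61 RPKM, and in H1299 libraries 41.2, 17.5, 10.0, 4.06 and 15.9.

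The first comparison asked which members responded to oncogenic RAS. Between OIS and Grow libraries, 223 of the 252 members had enough counts to be tested, and 124 of these passed an edgeR adjusted p under 0.05 (here termed called), 81 higher and 43 lower in OIS. In the same comparison 74.8% of all genes tested were called, 38.8% higher and 35.9% lower, beside 36.3% higher and 19.3% lower among the members tested, a difference that was not tested. On 19q, 67 of 156 members tested rose and 18 fell, with a median log2 fold change of 0.19, and on 19p 14 of 67 rose and 25 fell, with a median of -0.12. The median over all genes was 0.03. ZNF genes on other chromosomes (97 higher and 48 lower of 223, median 0.14) and the other genes of chromosome 19 (318 higher and 192 lower of 721, median 0.13) were called higher more often than lower, as on 19q.

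Cluster 19p-D held 15 of the 25 members of 19p that fell. Of its 38 genes 27 were tested, 15 fell, none rose, and the median log2 fold change was -0.51. The other 12 of the 27 had log2 fold changes from -0.19 (ZNF430) to 0.19 (ZNF14) without a call. DESeq2, which has its own filter, called 18 of the cluster lower and none higher, whereas edgeR with library sizes alone called 14 lower and 3 higher, ZNF14, ZNF626 and ZNF91. With at least 10 counts required in every library, the shallow OIS replicate 4 included, 9 genes of the cluster were left, 3 were called and the median was -0.16. The rest of 19p had 14 higher and 10 lower of 40 tested, with a median of 0.00. The subtelomeric cluster 19q-E held the most members that rose, 30 against 5 that fell of 58 tested, with a median of 0.29. In 19q-D 15 rose and 7 fell of 38, in 19q-C 7 and 2 of 21, in 19q-B 8 and 4 of 26, and in 19p-C 6 and 6 of 20.

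**Figure D1:**
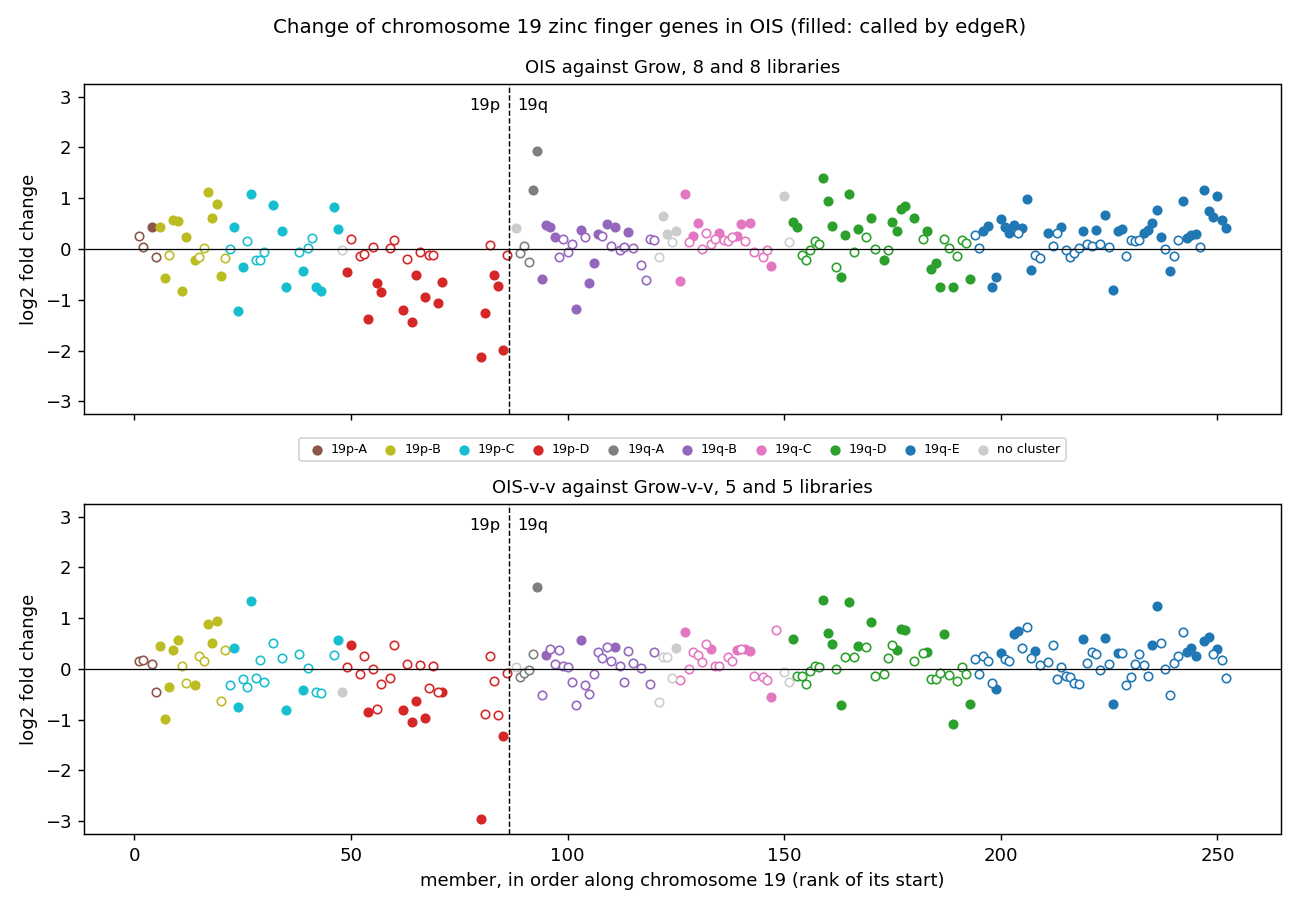
Log2 fold change of each member tested (y axis) against its rank along chromosome 19 (x axis), for OIS against Grow (upper panel, 8 and 8 libraries) and OIS-v-v against Grow-v-v (lower panel, 5 and 5). Filled circles were called by edgeR, colours mark the clusters, and the dashed line separates 19p from 19q. The red circles of 19p-D lie below 0 for most genes in the upper panel, where 15 are filled and none of these is above 0.

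Here and below, the members described in full for a comparison are the largest changes among called members whose groups do not overlap. Lack of overlap was thus a condition of naming and is not a further result. The members that rose most were ZNF792, ZNF432 and ZNF30. The translated sequences of ZNF792 and ZNF30 had the short pattern used here for the KRAB A box. That of ZNF432 did not match it, which does not show that ZNF432 lacks a KRAB domain. ZNF792 (ENSG00000180884, chr19:35447258-35454953 on hg19, minus strand) stood at 8.02 CPM in the lowest, 9.08 at the median and 11.2 in the highest Grow library. In OIS it stood at 31.7, 34.3 and 46.2 CPM, a log2 fold change of 1.92 (SE 0.08, edgeR adjusted p = 3.19e-19), or 3.8-fold. The lowest OIS library exceeded the highest Grow library, and this was the largest rise of the family.

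ZNF432 (ENSG00000256087, chr19:52534632-52598991, minus strand) was at 8.62, 9.95 and 11.9 CPM in Grow and at 23.3, 25.1 and 34.8 in OIS, a log2 fold change of 1.40 (SE 0.08, edgeR adjusted p = 5.59e-16). ZNF30 (ENSG00000168661, chr19:35417807-35436074, plus strand) was at 2.50, 2.99 and 3.64 CPM in Grow and at 5.54, 6.80 and 10.5 in OIS, a log2 fold change of 1.16 (SE 0.12, edgeR adjusted p = 6.72e-10). ZNF30 and ZNF792 are neighbours in 19q-A, where the other 3 members were not called. ZNF121, ZNF440, ZNF576 and ZNF562, which are named for other comparisons, rose by 1.13, 1.08, 1.08 and 0.89 on the log2 scale. They are not the next largest rises in order. ZNF610, for example, went from a mean of 3.257 CPM in Grow to 6.673 in OIS.

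The members that fell most under the naming rule, ZNF714, ZNF93 and ZNF724, all belong to 19p-D. ZNF93 is known to silence some LINE-1 elements. ZNF714 (ENSG00000160352, chr19:21264965-21308073, plus strand) was at 5.24, 6.41 and 8.23 CPM in Grow (lowest, median and highest) and at 1.39, 2.61 and 3.34 in OIS, a log2 fold change of -1.43 (SE 0.14, edgeR adjusted p = 5.7e-10).

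ZNF93 (ENSG00000184635, chr19:20011722-20046384, plus strand) was at 9.95, 11.6 and 13.8 CPM in Grow and at 3.67, 4.45 and 7.63 in OIS, a log2 fold change of -1.38 (SE 0.11, edgeR adjusted p = 1.7e-12). ZNF724 (ENSG00000196081, chr19:23404401-23433192, minus strand) was at 3.09, 3.96 and 5.71 CPM in Grow and at 0.00, 1.76 and 2.10 in OIS, a log2 fold change of -1.26 (SE 0.18, edgeR adjusted p = 5.21e-07). For these 3 genes no OIS library reached the lowest Grow library. The library without a ZNF724 count was the shallow OIS replicate 4, in which 3 counts correspond to 1.58 CPM before TMM factors.

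The other 12 genes of 19p-D that fell were ZNF730 (log2 fold change -2.13, from a mean of 1.24 to 0.295 CPM), ZNF726 (-1.98), ZNF85 (-1.21), ZNF100 (-1.07), ZNF738 (-0.95), ZNF486 (-0.85), ZNF681 (-0.73), ZNF90 (-0.67), ZNF43 (-0.66), ZNF431 and ZNF675 (both -0.51) and ZNF101 (-0.46). Without OIS replicate 4 the comparison called 124 members and 15 of 19p-D, with medians of 0.12 and -0.51.

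The pair of CCAAT boxes was noticed in the promoters of the members that fell most, so levels of genes with and without it are a description only. Leaving out the 3 members of 19p-D whose promoters are shown, the 13 others tested that had the pair had a median log2 fold change of -0.51, with 8 lower and none higher, and the 8 without it had a median of -0.12, with 3 lower and none higher. In the second experiment these medians were -0.38 (5 lower, none higher) and 0.04 (none lower, 1 higher), for the same genes and hence not as independent support. Outside 19p-D only 4 members with the pair were tested. Between OIS and Grow their median was -0.02, with 1 higher and none lower, against 0.18 for the 168 without the pair. In the second experiment the median of those with the pair was 0.13, with none called. Outside 19p-D, members with CCAAT on either strand and members without it had medians of 0.18 and 0.17 between OIS and Grow.

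Genes that mark dividing cells moved together with 19p-D. The summed level of MKI67, TOP2A, CCNB1 and CDK1 ranged from 1000 to 1320 CPM in Grow libraries (median 1170) and from 74.4 to 133 in OIS libraries (median 105), and all 4 genes fell. The part of this change in the fall of 19p-D was not tested. Scaling changed the split of the family: with library sizes alone and no TMM factors, 116 members were higher and 30 lower, 79.5% higher against 65.3%, while the median of all genes moved from 0.03 to 0.22. The median of 19p-D was then -0.32 and that of 19q 0.38. Among the members without exon overlap, 34 rose and 29 fell, and 10 of the 15 members of 19p-D tested there were called.

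The second experiment shares no library with the first. Between OIS-v-v and Grow-v-v libraries, 47 of 220 members tested rose and 21 fell, against 45.8% of all genes called, 22.7% higher and 23.2% lower. On 19q, 37 of 154 rose and 6 fell, with a median log2 fold change of 0.15, and on 19p 10 of 66 rose and 15 fell, with a median of -0.13. In 19p-D 8 of 27 tested fell and 1, ZNF14, rose by 0.47, with a median of -0.29. The lowest value of the family was that of ZNF730 in 19p-D, at a mean of 1.395 CPM in Grow-v-v and 0.170 in OIS-v-v libraries, which do not overlap (log2 fold change -2.96, SE 0.50, edgeR adjusted p = 0.000364), and it is named here after its values were seen.

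These counts depended on which replicates entered. With replicates 1 to 3 alone, a split chosen after the data were seen, 66 members rose and 34 fell (66.8% of all genes called), 16 of 19p-D fell and 1 rose, and the median of 19p-D was -0.56. With replicates 4 and 5 alone, 36 rose and 16 fell (40.5% of all genes), 4 of 19p-D fell and none rose, and its median was -0.10. A term for the split gave 59 and 31 (54.7% of all genes) and 11 lower and 2 higher in 19p-D. With the replicate number as a block, 52 rose and 25 fell (49.7% of all genes), 10 of 19p-D falling and 1 rising. Without OIS-v-v replicate 4, 14 members of 19p-D were called in place of 9, with a median of -0.39.

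ZNF792 stood at 6.80, 5.64, 7.33, 9.15 and 7.59 CPM in Grow-v-v replicates 1 to 5 and at 19.81, 20.97, 17.51, 24.49 and 27.21 in those of OIS-v-v, a log2 fold change of 1.61 (SE 0.15, edgeR adjusted p = 4.09e-06). ZNF432 stood at 7.98, 8.91, 7.22, 6.91 and 5.92 and at 20.72, 20.97, 22.57, 14.65 and 14.72 CPM, a log2 fold change of 1.35 (SE 0.15, edgeR adjusted p = 1.77e-05). ZNF440 (ENSG00000171295) stood at 4.40, 5.40, 3.97, 3.66 and 3.48 and at 10.7, 11.5, 10.8, 9.30 and 10.6 CPM, a log2 fold change of 1.34 (SE 0.13, edgeR adjusted p = 5.81e-06). In all 3 every OIS-v-v library lay above every Grow-v-v library, as the naming rule requires, by the widest margin in ZNF792. ZNF30, named in the first experiment, stood at 2.51, 2.67, 2.21, 3.86 and 3.07 CPM in Grow-v-v replicates 1 to 5. In OIS-v-v it stood at 3.27, 3.25, 3.55, 3.24 and 4.145 CPM, so its groups overlapped here. With replicates 1 to 3 alone ZNF30 was called, with a log2 fold change of 0.45.

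ZNF714 of 19p-D stood at 5.47, 5.88, 4.25, 7.32 and 5.02 CPM in Grow-v-v and at 1.98, 2.30, 2.15, 3.89 and 2.94 in OIS-v-v libraries, a log2 fold change of -1.05 (SE 0.21, edgeR adjusted p = 0.00134). ZNF525 of 19q-D stood at 1.48, 1.31, 1.16, 2.24 and 1.67 and at 0.847, 0.886, 0.524, 0.703 and 0.661 CPM, a log2 fold change of -1.09 (SE 0.24, edgeR adjusted p = 0.00259). ZNF358 of 19p-B stood at 39.6, 43.3, 46.4, 38.5 and 46.3 and at 19.4, 21.5, 22.8, 21.2 and 21.9 CPM, a log2 fold change of -0.99 (SE 0.09, edgeR adjusted p = 2.28e-06). None of the groups overlapped. Exons of ZNF358 overlap those of other genes over 34.3% of their length, 293 bases of it antisense.

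Across the 219 members tested in both experiments, the log2 fold changes had a Pearson correlation of 0.84, given here as a description across genes that share clusters and sequence, and 79.9% had the same sign. Over all 12792 genes tested in both, the values were 0.88 and 79.1%. Both experiments called 60 members, 48.4% of the 124 and 88.2% of the 68, and all 60 in the same direction, 41 higher and 19 lower. Over all genes both called 5292, 54.9% and 89.1% of the calls of each, 5164 of them in the same direction. Of the 19, 8 belonged to 19p-D. Dividing-cell genes again moved with the cluster, from 722 to 1320 CPM in Grow-v-v (median 834) to between 135 and 263 in OIS-v-v libraries (median 144), and their part was not tested.

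**Figure D2:**
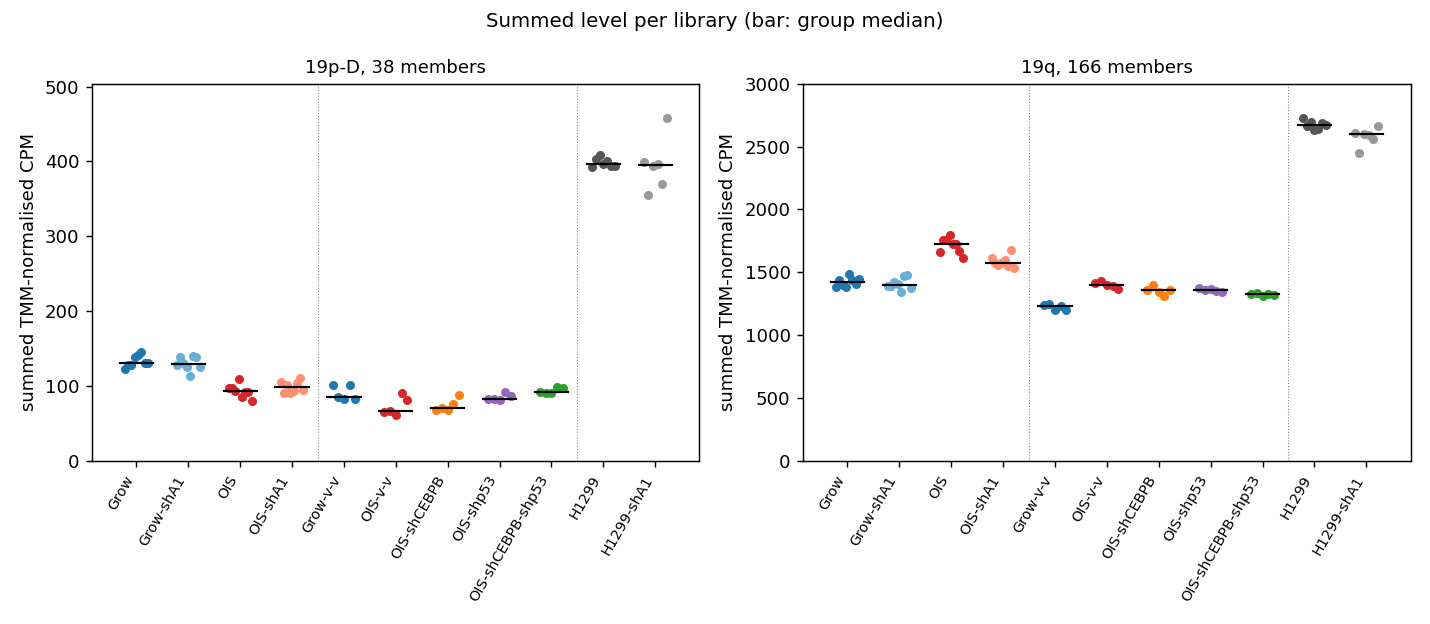
Summed TMM-normalised CPM (y axis, from 0) of the 38 members of 19p-D (left) and of the 166 members of 19q (right) in each library, by group (x axis). Points are libraries, bars are group medians, and dotted lines separate the 3 tables, which were normalised separately. The sum of 19p-D is lower in OIS (79.3 to 109) than in Grow (122 to 146) and higher with both hairpins than in OIS-v-v, while that of 19q is higher in OIS.

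Summed over its 38 genes, 19p-D held 122, 131 and 146 CPM in Grow (lowest, median and highest) and 79.3, 92.5 and 109 in OIS libraries, which do not overlap. Over the 166 members of 19q the sums were 1378, 1423 and 1483 in Grow and 1615, 1724 and 1793 in OIS libraries, again without overlap and in the opposite direction. In the second experiment 19p-D held 101, 84.6, 82.9, 101 and 82.8 CPM in Grow-v-v and 64.6, 66.2, 60.7, 89.7 and 80.4 in OIS-v-v libraries. Replicate 4 of OIS-v-v lay inside the Grow-v-v range and the other 4 lay below it. In H1299 libraries the cluster held 392, 396 and 409 CPM, and in H1299-shA1 libraries 355, 395 and 458.

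The next comparisons asked how the family in OIS differs with shCEBPB, against a transcription factor of the inflammatory secretory programme, with shp53 and with both hairpins. All 3 comparisons share the OIS-v-v libraries. With both hairpins, 13 of 220 members tested rose and 21 fell relative to OIS-v-v, against 33.6% of all genes called, 17.1% higher and 16.5% lower. In 19p-D 7 of 26 tested rose and none fell, with a median log2 fold change of 0.31. On 19q 3 of 155 rose and 15 fell, with a median of -0.04. The 7 were ZNF726, ZNF90, ZNF738, ZNF714, ZNF93, ZNF486 and ZNF506, by 1.30, 1.06, 0.91, 0.85, 0.82, 0.65 and 0.50 on the log2 scale.

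ZNF726 (0.677, 0.709, 0.349, 0.811 and 1.02 CPM in OIS-v-v replicates 1 to 5) stood at 1.33, 1.82, 1.69, 2.07 and 2.03 CPM with both hairpins, a log2 fold change of 1.30 (SE 0.24, edgeR adjusted p = 0.00137). ZNF93 (3.05, 3.25, 2.50, 5.19 and 5.29) stood at 5.73, 5.85, 7.12, 8.32 and 7.39 CPM, a log2 fold change of 0.82 (SE 0.21, edgeR adjusted p = 0.00884). ZNF766 of 19q-D (2.94, 3.01, 3.37, 4.76 and 3.24) stood at 6.74, 5.69, 6.01, 6.25 and 5.84 CPM, a log2 fold change of 0.80 (SE 0.14, edgeR adjusted p = 0.000895). For all 3 the libraries with both hairpins lay above every OIS-v-v library.

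ZNF441 of 19p-C (3.67, 4.25, 4.31, 5.14 and 3.60 CPM in OIS-v-v) stood at 2.87, 1.88, 1.98, 2.23 and 2.80 with both hairpins, a log2 fold change of -0.85 (SE 0.16, edgeR adjusted p = 0.00175). ZNF121 of 19p-B (12.7, 13.35, 15.53, 15.24 and 15.02) stood at 9.29, 7.89, 8.69, 8.64 and 8.70 CPM, a log2 fold change of -0.75 (SE 0.09, edgeR adjusted p = 3.97e-05). ZNF808 of 19q-D (6.15, 6.14, 6.23, 7.03 and 7.75) stood at 4.40, 4.18, 4.02, 4.24 and 5.18 CPM, a log2 fold change of -0.61 (SE 0.11, edgeR adjusted p = 0.00138). The groups of each gene do not overlap, and ZNF121 and ZNF808 lay nearer to their Grow-v-v levels, whose medians were 7.36 and 3.68 CPM.

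**Figure D3:**
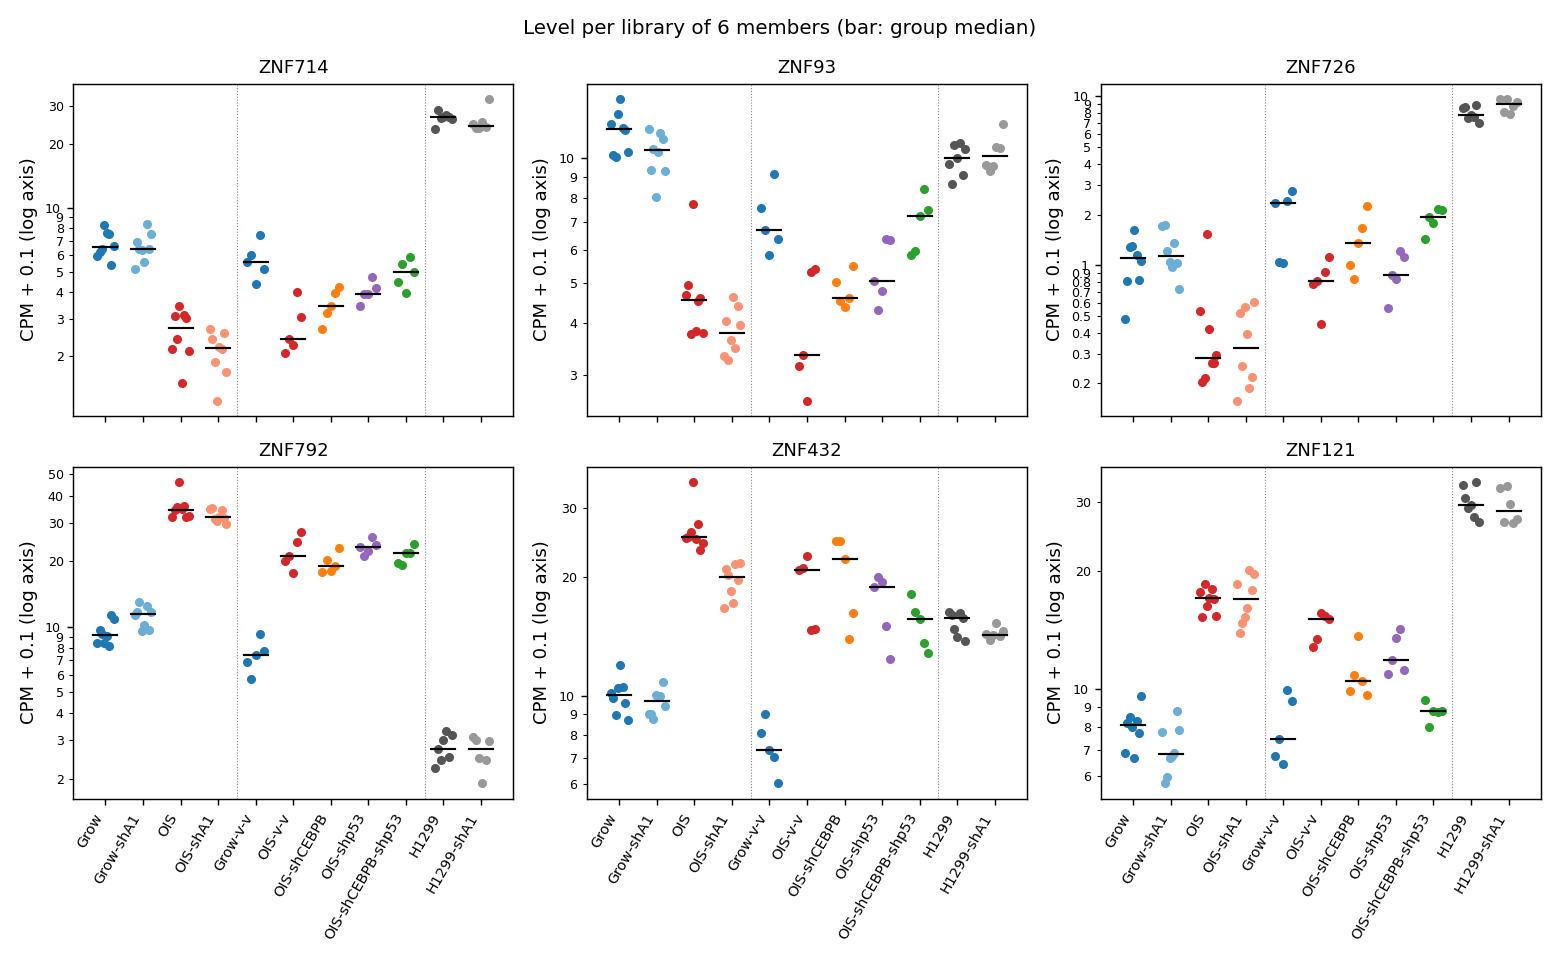
CPM + 0.1 on a log axis (y) in each library of all 11 groups (x axis) for 3 members of 19p-D (upper row) and 3 other members (lower row). Points are libraries and bars are group medians, with dotted lines between the 3 tables. ZNF714, ZNF93 and ZNF726 are lower in OIS than in Grow and higher with both hairpins than in OIS-v-v, ZNF121 shows the opposite order, and ZNF792 stays near 20 CPM in every OIS group of the second experiment.

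The sums of 19p-D with both hairpins were 91.8, 90.0, 90.8, 98.3 and 97.2 CPM, above all 5 OIS-v-v libraries. With replicates 1 to 3 alone, 25 members rose and 40 fell (53.7% of all genes called) and 14 of 19p-D rose, with a median of 0.53, and with replicates 4 and 5 alone 8 rose and 10 fell (28.7%) and 4 of 19p-D rose, with a median of 0.22. With a term for that split, 19 rose and 41 fell (48% of all genes), 11 of 19p-D rising. None of 19p-D fell in any of these fits. Library sizes alone turned the family's split to 20 higher and 7 lower (74.1% higher against 38.2%). Dividing-cell genes moved with this change too, all 4 being called higher, with sums of 340 to 372 CPM against 135 to 263, and their part was not tested.

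The double knock-down and the comparison of OIS with Grow share no library. Across 219 members tested in both, the log2 fold changes had a Pearson correlation of -0.51 as a description, and across the 26 of 19p-D one of -0.80, against -0.44 over 12783 genes. Both comparisons called 31 members, 25.2% of the 123 and 91.2% of the 34, and 2 of the 31 changed in the same direction. Over all genes both called 3599, 37.4% and 82.4% of the calls of each, with 925 in the same direction, and whether the family differs from this was not tested. In 19p-D 6 were called in both, all 6 lower in OIS and higher with both hairpins.

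**Figure D4:**
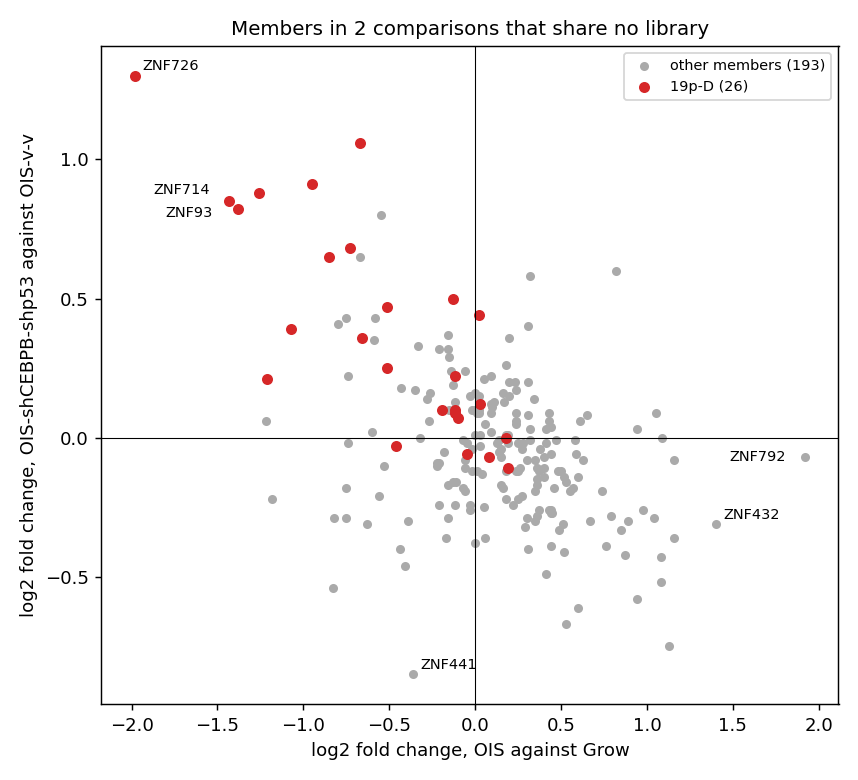
Log2 fold change of OIS-shCEBPB-shp53 against OIS-v-v (y axis) against that of OIS against Grow (x axis) for 219 members tested in both, 26 of 19p-D in red and 193 others in grey. The comparisons share no library. Most red points with a negative value on the x axis have a positive one on the y axis, whereas ZNF441 is negative on both.

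Each hairpin alone called few members. With shCEBPB, 2 of 218 members tested rose and 4 fell, against 17.1% of all genes called, 9.09% higher and 8% lower. ZNF358 (19.4, 21.5, 22.8, 21.2 and 21.9 CPM in OIS-v-v) ranged from 28.63 to 33.04 CPM with shCEBPB, a log2 fold change of 0.54 (SE 0.07, edgeR adjusted p = 0.00015), and ZNF766 was higher by 0.70. ZNF576, ZNF562 and ZNF808 fell by 0.35, 0.34 and 0.40 on the log2 scale without overlap between the groups (edgeR adjusted p = 0.00524, 0.00651 and 0.0457), and ZNF121 fell by 0.41. The call of ZNF808 was lost with upper-quartile factors (edgeR adjusted p = 0.0555) and with library sizes alone (0.117). No member of 19p-D was called by edgeR, 1 had an unadjusted p under 0.05, and the median was 0.01. Library sizes alone gave 3 higher and 2 lower.

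With shp53, 1 of 219 members was called, against 4.44% of all genes, 2.47% higher and 1.97% lower. ZNF441 (3.67, 4.25, 4.31, 5.14 and 3.60 CPM in OIS-v-v) stood at 1.89, 2.40, 1.84, 2.75 and 2.24 CPM with shp53, a log2 fold change of -0.92 (SE 0.16, edgeR adjusted p = 0.00606), and the groups do not overlap. No member of 19p-D was called by edgeR and 4 had an unadjusted p under 0.05, with a median of 0.20.

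Both counts rose when the replicate structure entered the fit. In the second experiment libraries of the same replicate number deviated together, and with the number as a block 4 members rose and 9 fell with shCEBPB (31.9% of all genes called), 1 of 19p-D among those that rose, and 4 rose and 10 fell with shp53 (22.7% of all genes), the 4 that rose all in 19p-D. With a term for the split of replicates, shCEBPB gave 5 and 14 (34.1%) and shp53 7 and 12 (26.3%), 6 of the 7 in 19p-D. With replicates 1 to 3 alone, 9 rose and 12 fell with shCEBPB (32.6%) and 14 rose and 17 fell with shp53 (34% of all genes), where 11 of 26 in 19p-D rose and none fell, with a median of 0.37. Among these, ZNF724 rose by 1.52 and ZNF714 by 0.77 on the log2 scale (edgeR adjusted p = 0.000288 and 0.00129). With replicates 4 and 5 alone, 3 rose and 9 fell with shCEBPB (24.6%) and edgeR called no member with shp53 (5.33% of all genes), ZNF441 having an adjusted p of 0.0609 there. Without OIS-v-v replicate 4, 5 members were called with shp53, 3 of them in 19p-D.

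The summed level of 19p-D was 68.1, 70.0, 67.9, 75.2 and 87.2 CPM with shCEBPB and 82.1, 82.4, 80.4, 92.3 and 86.4 with shp53, ranges that overlap that of OIS-v-v. Dividing-cell genes had medians of 203 and 249 CPM with the single hairpins, and none of the 4 was called in either. The interaction of the 2 hairpins, which tests whether the double knock-down differs from the sum of the single ones on the log2 scale, was called for no member of 221 tested by edgeR, against 0.0432% of all genes (0.0216% higher and 0.0216% lower), with 2 members at an unadjusted p under 0.05 and none called by DESeq2, by a block for the replicate number or by a term for the split.

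The remaining comparisons asked how HMGA1 affects the family. Between OIS-shA1 and OIS libraries, 6 of 222 members tested rose and 29 fell, against 35.9% of all genes called, 18.8% higher and 17.1% lower. Of the 29, 27 lie on 19q, where 3 of 156 rose, with a median log2 fold change of -0.11. In 19q-E 15 fell and 1 rose of 58, and in 19q-D 7 fell and 2 rose of 38. In 19p-D ZNF254 and ZNF626 rose by 0.32 and 0.52, no member fell, and the median of the 25 tested was 0.11, while with library sizes alone 1 rose and 1 fell, with a median of 0.02.

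ZNF432 stood at 23.3, 25.1 and 34.8 CPM in OIS (lowest, median and highest) and at 16.6, 19.9 and 21.7 in OIS-shA1, a log2 fold change of -0.39 (SE 0.07, edgeR adjusted p = 7.5e-05). ZNF83 of 19q-D stood at 13.5, 18.4 and 19.5 and at 20.3, 21.7 and 24.3 CPM, a log2 fold change of 0.37 (SE 0.08, edgeR adjusted p = 0.000307). For both the groups do not overlap. Other members that fell include ZNF766 (-0.59), ZNF30 (-0.55), ZNF358 (-0.37) and ZNF146 (-0.21).

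With library sizes alone 4 members rose and 65 fell, so the count of lower members depends on scaling, with medians of -0.16 and, with TMM, -0.08. The 19q sums were 1533, 1572 and 1679 CPM in OIS-shA1 libraries, with the lowest OIS libraries inside that range and the OIS median of 1724 above it, while those of 19p-D were 90.3, 97.7 and 110 CPM, which overlap the OIS range. Dividing-cell genes were lower still, with a median of 76.0 CPM against 105, and all 4 were called lower. Here they did not move with 19p-D, in which ZNF254 and ZNF626 rose and no member fell.

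In growing cells, 6 of 225 members tested rose and 17 fell with shA1, against 29.9% of all genes called, 14.8% higher and 15.1% lower, and the median was -0.01. With library sizes alone 10 rose and 11 fell (47.6% higher against 26.1%), and without Grow replicate 5 the count was 14 in place of 23. ZNF587B of 19q-E stood at 7.34, 8.44 and 9.36 CPM in Grow and at 4.20, 5.76 and 7.31 in Grow-shA1, a log2 fold change of -0.56 (SE 0.11, edgeR adjusted p = 0.000241), without overlap. Its exons overlap those of other genes over 18.6% of their length. In 19p-D 1 member rose and 2 fell of 28, and its sums of 112.5, 129 and 139 CPM overlapped those of Grow.

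The difference between the effects of shA1 in OIS and in Grow was called for 22 of 227 members, against 23.6% of all genes, 8 with a more positive effect in OIS (12.2% of all genes) and 14 with a more negative one (11.4%). Of the 14 all lie on 19q. With library sizes alone it was called for 42, 3 more positive and 39 more negative. ZNF30 had the effect most different among the named members, with a log2 difference of -0.80 (SE 0.16, edgeR adjusted p = 0.000269). It was named for its rise between Grow and OIS, whose libraries also enter this difference.

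In H1299 cells, 5 of 232 members tested rose and 18 fell with shA1, against 15.6% of all genes called, 8.65% higher and 6.93% lower, with a median of -0.05. In 19q-E 10 fell and 2 rose of 58. ZNF542P, a transcribed pseudogene of 19q-E, stood at 43.8, 49.4 and 51.4 CPM in H1299 and at 60.03, 65.64 and 70.37 in H1299-shA1 libraries, a log2 fold change of 0.43 (SE 0.05, edgeR adjusted p = 7.47e-06).

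ZNF77 of 19p-A stood at 10.74, 10.98 and 12.65 CPM in H1299 and at 7.92, 8.70 and 10.2 in H1299-shA1 libraries, a log2 fold change of -0.34 (SE 0.07, edgeR adjusted p = 0.00192). ZNF440 of 19p-C stood at 21.3, 22.8 and 26.2 and at 16.4, 18.8 and 20.6 CPM, a log2 fold change of -0.32 (SE 0.06, edgeR adjusted p = 0.00161). ZNF776 of 19q-E stood at 15.1, 16.6 and 17.5 and at 12.5, 13.2 and 14.6 CPM, a log2 fold change of -0.30 (SE 0.06, edgeR adjusted p = 0.00102). None of these groups overlapped, and the folds were small beside those between OIS and Grow. The count in H1299 was 33 without H1299-shA1 replicate 3 and 17 without replicate 4. Growing IMR90 and H1299 cells shared 5 called members, 22.7% of the 22 and 21.7% of the 23, all 5 in the same direction. Over all genes they shared 798, 22.9% and 41.5% of the calls of each, with 527 in the same direction.

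Of the 28 genes of the KRAB and TRIM28 pathway listed for comparison, 27 were in the table. Between OIS and Grow libraries 9 rose and 11 fell, in a comparison that called 74.8% of all genes, so the count is near the background and the values of single genes are given as a description. TRIM28 itself was at a log2 fold change of -0.03 (edgeR adjusted p = 0.644) and SETDB1 rose by 0.15. The HP1 genes CBX5, CBX1 and CBX3 fell by 0.90, 0.60 and 0.16, the methyltransferases SUV39H1 and SUV39H2 by 0.94 and 0.80, the remodeller CHD3 by 1.17, the histone chaperone RBBP7 by 0.75 and the DNA methyltransferase DNMT1 by 0.45. TRIM33, MORC2 and MPHOSPH8, the last 2 partners in heterochromatin silencing, rose by 0.84, 0.44 and 0.42, and ZNF274, a KRAB member of 19q-E that binds zinc finger genes, by 0.27.

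In the second experiment 5 of 26 pathway genes rose and 10 fell between OIS-v-v and Grow-v-v (45.8% of all genes called), and 7 rose and 1 fell with both hairpins (33.6%). Those that rose with both hairpins were CHD3 (0.55), EHMT2 (0.37), CBX1 (0.35), RBBP7 (0.32), HDAC1 (0.26), PPHLN1 (0.17) and SETDB1 (0.16), and TRIM24 fell by 0.32. With shA1, 3 of 27 rose and 5 fell in OIS (35.9% of all genes called), 6 rose and 2 fell in Grow (29.9%), and 1 fell in H1299 (15.6%). With shCEBPB alone 2 of 26 rose and 1 fell (17.1%). With shp53 alone edgeR called none of 26 (4.44%), and 4 had an unadjusted p under 0.05.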

How the data were processed

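The authors deposited raw counts per gene from RNA-seq of 70 libraries, aligned to hg19 and counted over GENCODE19 exons (featureCounts 1.5.2 in the table headers; the methods name another version). Per the file headers, strand was ignored and no option to count multi-mapped or multi-overlapping reads was set, so paralogs lose shared reads and antisense overlaps cannot be told apart in those tables. Fragments were counted in the IMR90 shHMGA1 table and reads in the H1299 table, and the shCEBPB and shp53 table has no such header. A symbol was found for 42662 of 44503 genes (95.9%). No column was left out, and the tables hold 0 mitochondrial genes, so a mitochondrial share could not be given.

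Each comparison was fitted on all genes and the libraries of its groups with edgeR 4.0.16 (R 4.3.3; TMM factors, filterByExpr, quasi-likelihood F test, Benjamini-Hochberg adjustment over all genes tested, called at an adjusted p under 0.05). The alternatives were DESeq2 1.42.0, library sizes alone, upper-quartile factors, no filter, at least 10 counts in every library, all groups in 1 fit, a block for the replicate number, members without exon overlap, a 0.5 Mb gap and each library left out; fits split by replicates 1 to 3 and 4 to 5 were added after the data were seen. In the second experiment, libraries of the same number deviated together in all 5 pairs of each comparison (correlations of 0.14 to 0.59 between deviations from the group means). Only 2 or 3 of 5 libraries correlated best with their own number. Whether the number marks pairs or only the split of replicates was not tested. The main fits hold no block, and counts with the block are given beside them. On simulated data with 200 changed genes, the fit recovered 95.5% for OIS against Grow (13304 genes), 93.5% in OIS-shA1 against OIS (13327), 84.5% in the double knock-down (13388) and 92.5% in H1299 (14840), and 2.3% to 5.1% of calls were false over these and the interaction. For the smallest simulated fold change, recovery was 88.1%, 86.6%, 62.7% and 86.6% in the same order, and 68.7% in the interaction of shA1 with OIS. Few genes were changed there and no split of replicates was simulated, unlike in the data. The shares of recovered and false calls therefore do not carry over to the real comparisons.

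Named members were, per comparison, the 3 largest rises and 3 largest falls among called members with a mean of at least 1 CPM and no overlap between groups, and the 5 with the highest RPKM in Grow. The level of the gene targeted by shp53 is not reported here. Other members are named as parts of small counts after their values were seen. Members and lists were chosen with earlier results of these data known. CPM use TMM factors computed table by table, and RPKM divide them by exon length. Promoters came from RefSeq (GRCh38.p14) and coding sequence from GENCODE on GRCh37. Figures used matplotlib 3.10.9.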

Additional observations from a re-analysis of the deposited data

Results flagged for a closer look

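In groups of 4 to 10 libraries, 7 of 87 sets of values for named members and cluster sums had 1 library far from the others. About 1 in 20 would by chance if the sets were independent, but they share libraries, so the 2 rates cannot be compared. Of the 7, 5 were OIS replicate 4, the library with 1903607 counts. It held 46.2 CPM of ZNF792 (others 31.7 to 35.7), 34.8 of ZNF432 (23.3 to 27.2), 10.5 of ZNF30 (5.54 to 7.28), 7.63 of ZNF93 (3.67 to 4.83) and 0.0 of ZNF724 (1.12 to 2.09). In that library 3 counts correspond to 1.58 CPM before TMM factors. The other 2 were ZNF766 in OIS-v-v replicate 4 (4.76 CPM, others 2.94 to 3.37) and ZNF77 in H1299 replicate 7 (12.7 CPM, others 10.7 to 11.2).

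The effect of shA1 differed between OIS and Grow cells, by the edgeR test of the interaction, for 8 named members. The log2 difference, OIS minus Grow, was -0.80 for ZNF30 (adjusted p = 0.000269), -0.58 for ZNF766 (0.0234), -0.43 for ZNF808 (0.0119), -0.35 for ZNF792 (0.0101), -0.33 for ZNF432 (0.0154) and -0.28 for ZNF146 (0.00289). It was 0.35 for ZNF83 (0.0124) and 0.47 for ZNF587B (0.00647). Of the 6 with a more negative effect in OIS, ZNF766 fell between Grow and OIS and the others rose. ZNF30, ZNF792, ZNF432, ZNF83 and ZNF587B were picked for changes among the same libraries as this test. The direction of their difference can therefore follow in part from the choice and is a description only. ZNF146 was picked for its level in Grow, and ZNF766 and ZNF808 were picked in the second experiment.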

How the results depend on the processing

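Library sizes alone moved the medians between OIS and Grow to 0.32 over the members, -0.32 in 19p-D and 0.38 on 19q, those with shCEBPB to 0.05 over the members and on 19q, that with shp53 to 0.01, and those with both hairpins to 0.07 and 0.06 on 19q. They gave 69 calls and a median of -0.16 for OIS-shA1 and 42 and -0.18 for the interaction with OIS. Without a filter the median between OIS and Grow was 0.07. At least 10 counts in every library, the shallow one included, left 77 calls, 3 of 9 in 19p-D, with a cluster median of -0.16. DESeq2 called 2 with shp53, and all groups in 1 fit called 11 of 19p-D with both hairpins. Members without exon overlap gave 63 (median 0.02), 14, 14, 36, 3, 18 (median -0.06), 11 and 11 calls in OIS, OIS-shA1, Grow-shA1, OIS-v-v, shCEBPB, the double knock-down, H1299 and the interaction, 3 of 19p-D with both hairpins and a 19q median of -0.06 with shCEBPB. Fewer genes were counted there. A 0.5 Mb gap gave 10 clusters with 238 members.

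With the replicate number as a block, 13 members were called with shCEBPB (1 in 19p-D) and 14 with shp53 (4), and 77 and 45 in OIS-v-v and with both hairpins. Outside the second experiment, correlations between same-numbered libraries ran from -0.15 to 0.29, the libraries share only a number, and the block gave 124 calls for OIS, 29 and 21 for OIS-shA1 and Grow-shA1 and 20 for H1299. Libraries that correlated best with their own number were 1 or 2 of 8, and 1 of 6. A term for the split of replicates gave 19, 19 and 60 calls with shCEBPB, shp53 and both hairpins (2, 6 and 11 in 19p-D). Replicates 1 to 3 gave 17 calls (median -0.56) in 19p-D for OIS-v-v, and 21, 31 (median -0.03) and 65 with the hairpins, 4, 11 and 14 (median 0.53) in 19p-D. Replicates 4 and 5 gave 4 in 19p-D for OIS-v-v, and 12, 0 and 18 with the hairpins (2 and 4 in 19p-D with shCEBPB and with both), and medians of 0.02 over the members and on 19q with shp53. The cause of these moves was not tested.

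With each library left out in turn, the calls over the members were 120 to 125 for OIS, 30 to 46 for OIS-shA1, 14 to 25 for Grow-shA1, 52 to 68 for OIS-v-v, 4 to 6 for OIS-shCEBPB, 1 to 5 for OIS-shp53, 24 to 46 for OIS-shCEBPB-shp53, 17 to 33 for H1299-shA1, 19 to 24 for the interaction of shA1 with OIS, 0 throughout for the interaction of both hairpins. The calls in 19p-D were 15 throughout for OIS, 6 to 14 for OIS-v-v, 0 throughout for OIS-shCEBPB, 0 to 3 for OIS-shp53, 6 to 11 for OIS-shCEBPB-shp53. The medians over the members were 0.08 to 0.14 for OIS, -0.10 to -0.07 for OIS-shA1, -0.02 to 0.00 for Grow-shA1, 0.07 to 0.12 for OIS-v-v, -0.03 to 0.00 for OIS-shCEBPB, -0.03 to 0.00 for OIS-shp53, -0.05 to -0.02 for OIS-shCEBPB-shp53, -0.07 to -0.03 for H1299-shA1, -0.09 to -0.05 for the interaction of shA1 with OIS, -0.01 to 0.02 for the interaction of both hairpins, in 19p-D -0.56 to -0.45 for OIS, -0.39 to -0.20 for OIS-v-v, -0.05 to 0.11 for OIS-shCEBPB, 0.16 to 0.33 for OIS-shp53, 0.23 to 0.40 for OIS-shCEBPB-shp53 and on 19q 0.16 to 0.22 for OIS, 0.13 to 0.17 for OIS-v-v, -0.03 to 0.00 for OIS-shCEBPB, -0.05 to -0.01 for OIS-shp53, -0.08 to -0.02 for OIS-shCEBPB-shp53.

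Of 269 values of named members under these settings, 264 kept direction and call, 5 lost the call and none changed sign. Of 366 with a library left out, 357 kept both and 9 lost the call. Named members were picked for large changes without overlap, so these counts do not describe the rest of the family. Depth limits the low members: in OIS replicate 4 a count of 3 is 1.58 CPM before TMM factors.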
